A study of Mus musculus with 96 samples.

Results

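Ttc9, Pdxk, Fah and Tnxb are 4 of the 22497 genes measured in mouse back-skin epidermis, and they were picked by name because their daily rhythm was present in WT or RERE mice and lost in EpiRE or BRE mice. That rhythm is therefore described below without a test. All 4 passed the filter of a mean of at least 0 log2 RPKM (reads scaled to gene length and library size), as did 11028 of the 22497 genes. Tests are given for measures the choice did not use directly, which are the mean level over the day, the spread between mice of the same time, and the relation to the clock output gene Dbp between such mice. Neither the mean level nor the relation to Dbp is fully independent of a choice of clock-dependent genes, as stated with their values.

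Epidermis was taken from the back of C57BL/6 females aged 8 weeks, and its polyadenylated RNA was sequenced in 96 libraries, with 4 biological replicates at each of 6 circadian times (CT) 4 h apart. All mice had been in constant darkness for 156 to 176 h. RERE mice were Arntl stopFL/stopFL with both K14Cre tg/wt and Syt10-Cre tg/wt and had the clock restored in epidermis and brain. EpiRE mice were Arntl stopFL/stopFL with K14Cre tg/wt but Syt10-Cre wt/wt and had it restored in the epidermis. BRE mice were Arntl stopFL/stopFL with K14Cre wt/wt but Syt10-Cre tg/wt and had it restored in the brain. WT mice were Arntl wt/wt with both K14Cre wt/tg and Syt10-Cre tg/wt, so they carried both Cre transgenes and an intact Arntl. In RERE, EpiRE and BRE the blocked Arntl alleles were present in every tissue that neither Cre reached. K14Cre acts in keratinocytes and in the other epithelia that make keratin 14, and Syt10-Cre acts in the suprachiasmatic nucleus, the seat of the central clock, and also in other cells that use the Syt10 promoter. The CT of EpiRE and BRE libraries rest on the column names of 1 set of deposited tables, as described with the processing.

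Arntl encodes BMAL1, which pairs with CLOCK or NPAS2 on E-box sites and drives the clock's own repressors (the Per, Cry and Nr1d1 genes) and its output factors Dbp, Tef and Hlf. DBP, TEF and HLF activate genes through D-box sites, which the repressor NFIL3 also binds, and NR1D1 represses genes through ROR elements. A clock gene loop thus reaches a tissue's metabolism through several families of sites that are active at different times of day. Ttc9 encodes a small tetratricopeptide repeat protein whose human counterpart was described as hormone-induced in breast cancer cells. Pdxk encodes pyridoxal kinase, which phosphorylates vitamin B6 on the way to pyridoxal phosphate (PLP), the cofactor of many amino acid enzymes, and which is known in mouse liver and brain as a gene lowered when DBP, TEF and HLF are all missing. Fah encodes fumarylacetoacetate hydrolase, the last enzyme of tyrosine breakdown, whose loss in humans causes hereditary tyrosinaemia. Tnxb encodes tenascin-X, an extracellular matrix glycoprotein that organises collagen fibrils and is lost in a form of Ehlers-Danlos syndrome.

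The 4 genes lie on 4 chromosomes of GRCm38 (mm10), with coordinates from GENCODE vM21. Ttc9 (ENSMUSG00000042734) spans chr12:81631249-81667557 on the plus strand, and Pdxk (ENSMUSG00000032788) spans chr10:78436744-78464975 on the minus strand. Fah (ENSMUSG00000030630) spans chr7:84585159-84606722 on the minus strand, 28.6 Mb from Arntl on the same chromosome. Tnxb (ENSMUSG00000033327) spans chr17:34670535-34719815 on the plus strand. No gene of the tables overlapped any of them. The sequence before the start site is shown for Ttc9 and Fah, which peaked near each other in the day, and for Pdxk, which peaked at another time. Each is the part outside annotated exons of the 250 bases before the RefSeq start site (RefSeq, GRCm38.p6), read 5′ to 3′ on the gene's strand. Capitals mark the E-box CACGTG.
Ttc9, chr12:81630999-81631248, plus strand: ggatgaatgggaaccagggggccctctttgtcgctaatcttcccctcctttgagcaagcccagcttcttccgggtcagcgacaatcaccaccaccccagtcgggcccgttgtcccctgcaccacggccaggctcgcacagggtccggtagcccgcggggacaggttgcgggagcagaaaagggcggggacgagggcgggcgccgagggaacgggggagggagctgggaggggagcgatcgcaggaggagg
Fah, chr7:84605943-84606192, minus strand: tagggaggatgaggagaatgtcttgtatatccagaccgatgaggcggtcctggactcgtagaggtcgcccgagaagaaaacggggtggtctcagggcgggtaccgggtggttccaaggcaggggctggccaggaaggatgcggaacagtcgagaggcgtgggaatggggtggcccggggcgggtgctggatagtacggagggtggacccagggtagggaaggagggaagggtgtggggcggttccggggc
Pdxk, chr10:78464976-78465198, minus strand: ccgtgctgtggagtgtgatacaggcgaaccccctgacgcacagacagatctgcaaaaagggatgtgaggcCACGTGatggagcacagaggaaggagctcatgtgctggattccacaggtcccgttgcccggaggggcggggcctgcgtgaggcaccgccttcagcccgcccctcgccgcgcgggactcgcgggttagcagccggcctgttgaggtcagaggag

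These 3 windows were 68.0% G or C for Ttc9, 64.4% for Fah and 65.5% for Pdxk. The Pdxk window held 1 E-box, at bases -180 to -175 from the start site, and a CACGTG stood in 6.02% of the 32851 promoters of the same table. CACGTG reads the same on both strands. Neither a D-box (TTACGTAA or TTATGTAA) nor a ROR element (TAGGTCA or TGGGTCA), sought on both strands, was found in any of the 3. The D-box letters stood in 0.93% and the ROR letters in 5.38% of all promoters. The printed Fah window lies inside the longer Fah gene of GENCODE, since the annotations start the gene at different bases. Tnxb is not shown because its annotated starts lie far apart.

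Library totals, recovered from the deposited values, were 11.1 to 19.9 M reads with a median of 15.2 M, and the genotype means were 14.8 M in RERE, 14.8 M in EpiRE, 15.0 M in BRE and 15.4 M in WT. Arntl itself ranged from 2.67 to 4.85 log2 RPKM (median 4.13) in RERE, from 3.64 to 4.90 (median 4.11) in EpiRE, from 3.68 to 4.37 (median 3.86) in BRE and from 2.51 to 4.97 (median 3.94) in WT. BRE minus WT was 0.01 ± 0.12 (SE) on the log2 scale for Arntl, so reads counted over the whole gene do not show whether the block was in place. The BMAL1 target Nr1d1 averaged 2.13 ± 0.30 log2 RPKM in BRE and 5.54 ± 1.61 in WT (SD, n = 24 each), and all 24 BRE libraries lay below the lowest time mean of WT. EpiRE replicate 1 at CT0 and at CT8 were the 2 of 96 libraries that stood apart by their correlation with the rest, and results were also computed without them.

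Keratinocyte markers defined these samples, with Krt5 at 12.52 log2 RPKM in RERE, 12.57 in EpiRE, 12.53 in BRE and 12.58 in WT on average. The 7 fibroblast markers summed to a median of 1.66 RPKM in RERE, 1.6 in EpiRE, 1.72 in BRE and 1.6 in WT, and Pdgfra, Lum and Dpt were under 1 RPKM in all 96 libraries. In these bulk samples fewer cells of a type and less RNA per cell cannot be told apart.

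Ttc9 was high around subjective dawn in RERE and WT, less variable over the day in EpiRE, with its highest time mean also at CT0, and evenly high in BRE. At CT0 its replicates had 2.19, 2.36, 2.26 and 2.49 log2 RPKM in RERE, 1.05, 1.56, 2.17 and 1.43 in EpiRE, 2.82, 2.63, 2.69 and 2.65 in BRE, and 1.99, 2.13, 2.06 and 2.16 in WT. At CT12 they had 0.58, 0.32, 0.21 and 0.40 in RERE, 1.44, 1.18, 0.94 and 1.00 in EpiRE, 2.70, 2.84, 2.94 and 3.01 in BRE, and 0.25, 0.28, 0.21 and -0.08 in WT. At CT12 every EpiRE library was above every RERE and WT library, and every BRE library was above every library of the other genotypes. The 6 time means spanned 4.52-fold in RERE, 1.67-fold in EpiRE, 1.16-fold in BRE and 3.78-fold in WT. A 24 h cosine had an amplitude, the height of the fitted curve above its mean on the log2 scale, of 1.07 ± 0.09 (SE) in RERE with a peak at CT 23.1. In EpiRE the amplitude was 0.25 ± 0.10, in BRE 0.07 ± 0.05, and in WT 1.05 ± 0.08 with a peak at CT 22.0. On log2(RPKM + 1) the amplitudes of this low gene were 0.74 in RERE and 0.72 in WT. Its lowest libraries were 1 of RERE at CT16, with -0.09 against 0.70 to 1.3 in the other 3, and 1 of WT at CT8, with -0.13.

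Pdxk peaked at another time than Ttc9, with high values from CT12 to CT16 in RERE and WT. At CT16 its replicates had 2.87, 3.10, 3.14 and 2.98 log2 RPKM in RERE, 2.30, 2.32, 2.59 and 2.22 in EpiRE, 1.96, 2.23, 1.68 and 2.11 in BRE, and 2.89, 2.98, 2.72 and 2.79 in WT. At CT4 they had 1.94, 1.73, 1.29 and 1.72 in RERE, 2.50, 2.63, 2.50 and 2.24 in EpiRE, 1.57, 1.6, 2.06 and 1.62 in BRE, and 1.37, 1.35, 1.55 and 1.6 in WT. The order of EpiRE and RERE thus turned over between these times with no overlap at either. Time means spanned 2.55-fold in RERE, 1.46-fold in EpiRE, 1.36-fold in BRE and 2.91-fold in WT. The amplitude was 0.75 ± 0.05 in RERE with a peak at CT 14, 0.09 ± 0.07 in EpiRE, 0.22 ± 0.07 in BRE and 0.71 ± 0.08 in WT with a peak at CT 13.9. In BRE the fitted peak was at CT 19.0, and the BRE libraries of CT20 ranged from 1.45 to 2.48, the widest of the gene's groups.

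Fah peaked close to Ttc9 in time and had the fewest reads of the 4, from 43 to 214 per library. At CT0 its replicates had 2.57, 2.77, 2.83 and 2.65 log2 RPKM in RERE, 1.65, 2.14, 2.62 and 1.92 in EpiRE, 2.32, 2.38, 2.39 and 2.41 in BRE, and 2.21, 2.43, 2.46 and 2.51 in WT. At CT12 they had 1.41, 1.57, 1.18 and 1.17 in RERE, 1.72, 2.07, 1.91 and 2.32 in EpiRE, 2.17, 2.2, 2.14 and 2.33 in BRE, and 1.26, 0.80, 1.92 and 1.56 in WT. RERE lay above every WT library at CT0, and both lay below every BRE library at CT12. The amplitude was 0.67 ± 0.06 in RERE with a peak at CT 23.9, 0.12 ± 0.10 in EpiRE, 0.05 ± 0.05 in BRE and 0.49 ± 0.07 in WT with a peak at CT 0.34. The RERE amplitude was 137% of that in WT, and the shares for EpiRE and BRE were 25.1% and 9.6%.

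Tnxb was the most abundant per length, with a geometric mean of 45.8 RPKM in RERE, 49.4 in EpiRE, 43.6 in BRE and 48.1 in WT, and the deepest, with 3861 to 13106 reads per library. At CT12 its replicates had 5.96, 6.09, 5.99 and 5.58 log2 RPKM in RERE, 5.59, 5.65, 5.74 and 5.64 in EpiRE, 5.45, 5.49, 5.64 and 5.55 in BRE, and 6.07, 6.09, 5.98 and 6.18 in WT. At CT0 they had 5.40, 4.62, 4.98 and 5.09 in RERE, 5.41, 5.40, 5.13 and 5.55 in EpiRE, 5.39, 5.49, 5.48 and 5.25 in BRE, and 5.20, 4.64, 5.10 and 5.25 in WT. Every WT library at CT12 lay above every EpiRE and BRE library of that time, while RERE overlapped both through its replicate 4. The amplitude was 0.41 ± 0.05 in RERE with a peak at CT 12.3, 0.08 ± 0.05 in EpiRE, 0.10 ± 0.04 in BRE and 0.52 ± 0.04 in WT with a peak at CT 12.5. The 7 fibroblast markers summed to 0.408 to 4.94 RPKM in RERE and 0.880 to 3.39 in EpiRE. Their sums were 1.06 to 9.63 RPKM in BRE and 0.635 to 3.46 in WT. Which cells made Tnxb was not tested.

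**Figure D1:**
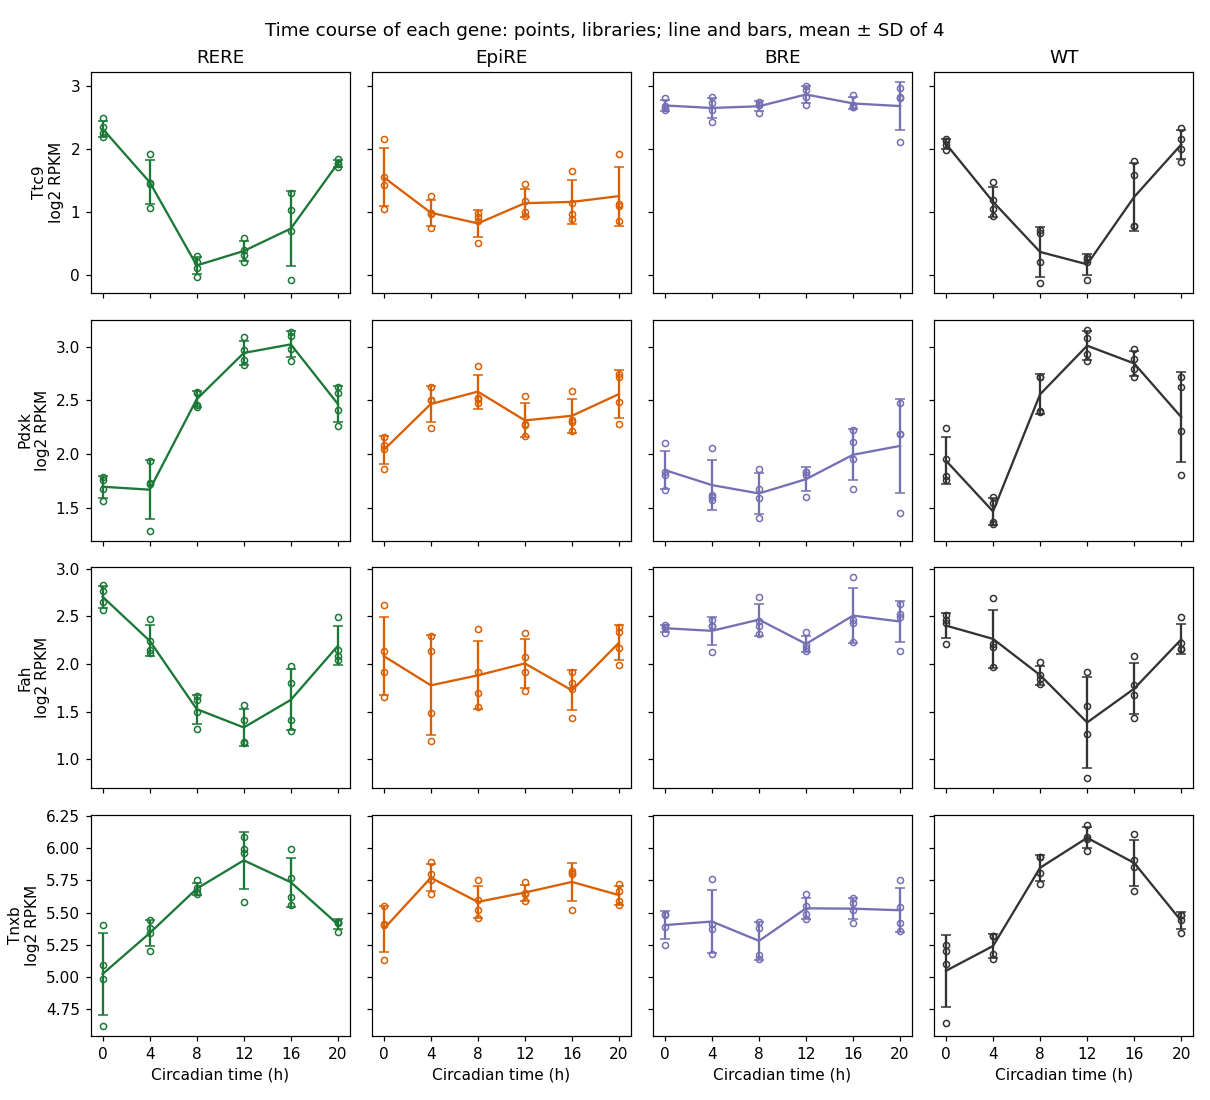
Log2 RPKM of Ttc9, Pdxk, Fah and Tnxb (rows) against circadian time in hours for RERE, EpiRE, BRE and WT (columns), with circles for libraries and lines with bars for the mean ± SD of 4. RERE and WT share the shape of each curve, with fold spans for Ttc9 of 4.52 and 3.78, while the lines of EpiRE and BRE vary less.

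In the authors' deposited table of BIOCYCLE, the peaks were at 23.0 h in RERE and 21.8 h in WT for Ttc9, 14.1 h and 13.7 h for Pdxk, 24 h and 0.784 h for Fah, and 12.4 h in both for Tnxb. The 4 genes therefore fall into a dawn pair, Ttc9 and Fah, and a dusk pair, Pdxk and Tnxb. Over the 24 group means, which share libraries and depth within each group, Pearson's r was 0.86 between Ttc9 and Fah and 0.82 between Pdxk and Tnxb. Across the pairs r was -0.73 for Ttc9 and Pdxk, -0.66 for Ttc9 and Tnxb, -0.82 for Pdxk and Fah and -0.84 for Fah and Tnxb. These values describe the choice of rhythmic genes as well as the genes.

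**Figure D2:**
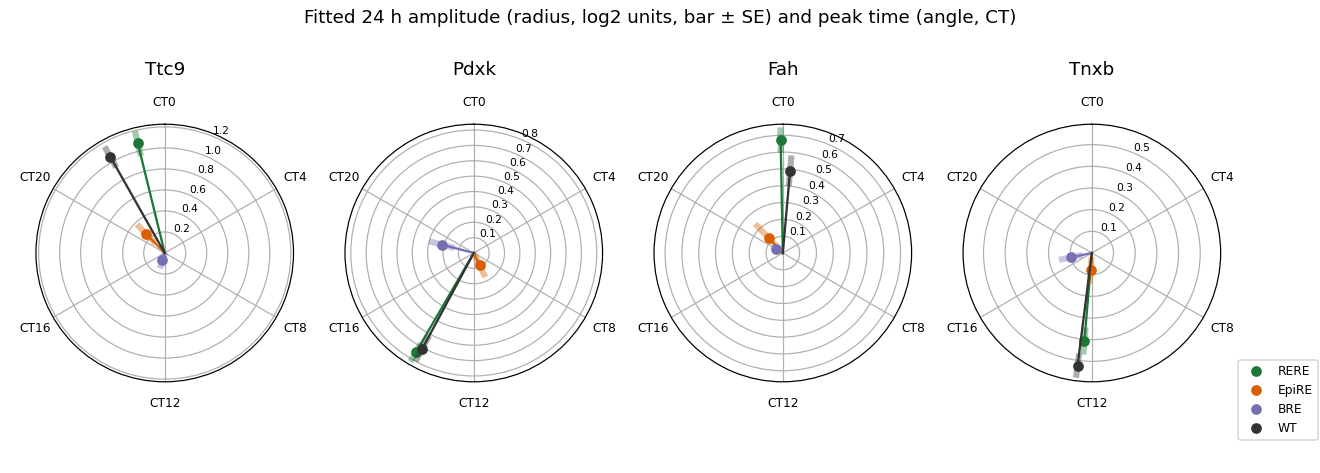
Fitted 24 h amplitude in log2 units (radius, with a thick bar for ± SE) and peak time in CT hours (angle) of each gene in RERE, EpiRE, BRE and WT. Ttc9 and Fah point near CT0 and Pdxk and Tnxb to CT12 to CT14 in RERE and WT, and the EpiRE and BRE lines are short, at most 0.25.

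The choice of genes did not use the mean level over the day directly. In BRE that level differed from each of the other 3 genotypes for Ttc9, Pdxk and Fah. It was taken from the same libraries as the rhythm. Genes picked for a clock-dependent rhythm can also shift in level where the epidermal clock is missing. The level is therefore not fully independent of the choice. Ttc9 was 2.91-fold higher in BRE than in WT, Fah was 1.32-fold higher and Pdxk was 0.70 times the WT level, while Tnxb did not pass the test. No difference of RERE or EpiRE from WT, or of RERE from EpiRE, passed the same test for any of the 4, and none had an unadjusted p under 0.05. Level here is the mean of log2 values, that is, a geometric mean, tested with genotype beside CT by limma's moderated test with Benjamini-Hochberg adjustment over all genes tested.

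Ttc9 ranged from -0.09 to 2.49 log2 RPKM (median 1.18) in RERE, from 0.51 to 2.17 (median 1.03) in EpiRE, from 2.12 to 3.01 (median 2.71) in BRE and from -0.13 to 2.34 (median 1.11) in WT. All 24 BRE libraries were above 2.08, the highest time mean of WT, and BRE and WT did not overlap at 5 of the 6 times. No share of all genes is given for overlap, so such counts are a description only. BRE minus WT was 1.54 ± 0.14 (SE, adjusted p = 5.14e-12 by limma), where 36.9% of all genes tested were called, 12.5% as higher and 24.4% as lower in BRE. With median-of-ratios scaling of the libraries 1903 genes were called higher and 1807 lower in place of 1382 and 2684, and the calls of Ttc9, Pdxk and Fah stood. By the size of the change Ttc9 ranked 21, Pdxk 298 and Fah 543 among 11016 genes.

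Against BRE, RERE was lower for Ttc9, with a difference of -1.58 ± 0.14 on the log2 scale (adjusted p = 4.48e-12 by limma), and the 2 genotypes did not overlap at any of the 6 times. In RERE against BRE 27.5% of genes were called, 17.4% as higher and 10.1% as lower in RERE. EpiRE against BRE, a comparison added after the data had been seen, gave -1.57 ± 0.08 for Ttc9 (adjusted p = 7.06e-20 by limma), again with no overlap at any time, where 34.0% of genes were called. The 3 comparisons share the BRE libraries, and the lack of overlap is again a description, without a share of all genes. Scaling by median of ratios turned the split of calls to 1225 higher and 1537 lower in RERE against BRE, from 1910 and 1110, and to 1514 and 1748 in EpiRE against BRE, from 2520 and 1217.

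Pdxk ranged from 1.29 to 3.14 log2 RPKM (median 2.51) in RERE, from 1.86 to 2.82 (median 2.40) in EpiRE, from 1.41 to 2.48 (median 1.82) in BRE and from 1.35 to 3.16 (median 2.52) in WT. Genotypes overlapped over the day, and BRE lay low at most times. BRE minus WT was -0.52 ± 0.10 (adjusted p = 6.4e-05 by limma), and BRE was lower at 5 of 6 times. RERE minus BRE was 0.55 ± 0.10 (adjusted p = 2.3e-05) and EpiRE minus BRE 0.55 ± 0.07 (adjusted p = 2.89e-08), both by limma. EpiRE exceeded BRE on average at each of the 6 times.

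Fah ranged from 1.17 to 2.83 log2 RPKM (median 2.01) in RERE, from 1.19 to 2.62 (median 1.92) in EpiRE, from 2.13 to 2.91 (median 2.40) in BRE and from 0.80 to 2.69 (median 2.05) in WT. BRE minus WT was 0.40 ± 0.08 (adjusted p = 8.12e-05 by limma), with BRE higher at 5 of 6 times. RERE minus BRE was -0.46 ± 0.09 (adjusted p = 0.000101) and EpiRE minus BRE was -0.44 ± 0.08 (adjusted p = 2.45e-05), both by limma. The BRE mean lay at 98.8% of the way from the lowest to the highest time mean of WT, so near the WT peak.

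Tnxb ranged from 4.62 to 6.09 log2 RPKM (median 5.50) in RERE, from 5.13 to 5.89 (median 5.64) in EpiRE, from 5.14 to 5.76 (median 5.44) in BRE and from 4.64 to 6.18 (median 5.58) in WT. The genotypes overlapped over the day, and at single times BRE and WT, and EpiRE and WT, did not overlap at 3 of the 6. This too is a description without a share of all genes, and neither of these 2 level differences was called. BRE minus WT was -0.14 ± 0.07 (adjusted p = 0.0956 by limma), and RERE minus BRE was 0.07 ± 0.06 (adjusted p = 0.423 by limma). EpiRE minus BRE was 0.18 ± 0.04 (adjusted p = 0.000699 by limma), the sole called level difference of Tnxb, with EpiRE higher at 5 of 6 times.

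Within the daily range of WT, from its lowest time mean as 0 to its highest as 100%, the BRE mean stood at 133% for Ttc9, 98.8% for Fah, 24% for Pdxk and 38.7% for Tnxb. The means of RERE stood between 45.4% and 59.4% for the 4 genes, and those of EpiRE between 51.4% and 59.6%. The BRE mean was thus at or past the WT peak for the dawn pair and below the WT middle for the dusk pair. For Tnxb, however, the level difference of BRE from WT was not called. The RERE mean of Tnxb, at 45.4%, was also below the WT middle. For comparison, the BRE mean stood at 14.6% for Dbp, 38.9% for Tef, 45.9% for Hlf and 82.8% for Nfil3. It stood at -28.6% for Nr1d1, below the lowest time mean of WT. For Arntl, the blocked gene, which peaked at CT 22.0 in WT, it stood at 56.9%, away from the WT peak.

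**Figure D3:**
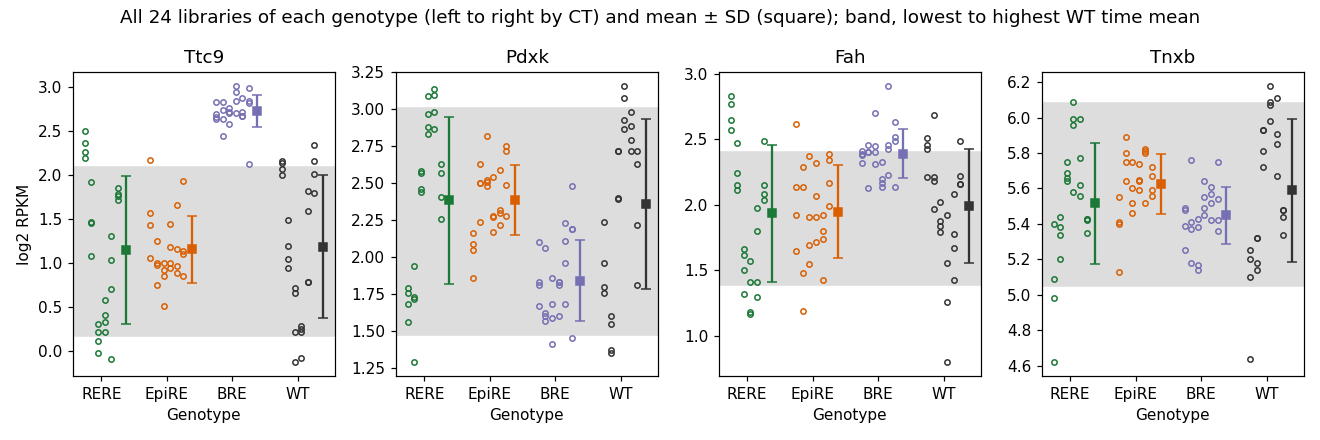
Log2 RPKM of all 24 libraries of RERE, EpiRE, BRE and WT (circles, ordered by circadian time from left to right within a genotype) with the mean ± SD (squares), and a grey band from the lowest to the highest time mean of WT. BRE sits above the band for Ttc9, with a mean of 2.72 against 1.18 in WT, at its upper edge for Fah and low in it for Pdxk.

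Between the genotypes with a restored epidermal clock and WT no level of the 4 was called. RERE minus WT was -0.04 for Ttc9 with an interval of 2 SE on either side from -0.23 to 0.15, 0.02 (-0.09 to 0.14) for Pdxk, -0.05 (-0.19 to 0.09) for Fah and -0.07 (-0.17 to 0.02) for Tnxb. EpiRE minus WT was -0.03 (-0.28 to 0.22) for Ttc9, 0.03 (-0.17 to 0.22) for Pdxk, -0.04 (-0.23 to 0.15) for Fah and 0.04 (-0.09 to 0.16) for Tnxb. RERE minus EpiRE was -0.01 (-0.27 to 0.24) for Ttc9, -0.00 (-0.18 to 0.18) for Pdxk, -0.01 (-0.21 to 0.19) for Fah and -0.11 (-0.22 to 0.00) for Tnxb. By limma 2.14% of all genes were called in RERE against WT, 2.23% in EpiRE against WT and 0.00906% in RERE against EpiRE. Leaving out replicate 4 lowered the calls of RERE against WT to 48 genes from 236, and those of EpiRE against WT to 55 from 247.

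Several cell type markers also differed in level between BRE and WT, where 12.5% of all genes were called higher and 24.4% lower, and their part in the levels of the 4 genes was not tested. Of 8 keratinocyte markers 4 were higher and none lower in BRE (2 of the 8 were called by limma-voom), and their summed level was 18900 to 24500 RPKM in BRE and 16800 to 22800 in WT. Of 5 hair follicle markers tested 4 were lower and none higher, with the 6 listed summing to 3350 to 4570 RPKM in BRE and 3300 to 5640 in WT. Of 3 T cell markers 1 was higher and 2 lower, of 3 myeloid markers 1 was lower, of 2 melanocyte markers both were lower, and of 2 sebaceous gland markers 1 was higher. No marker of fibroblasts, endothelium, Schwann cells, muscle or adipocytes reached the filter in that comparison. In RERE against BRE, where Ttc9, Pdxk and Fah differed as well, 3 of 8 keratinocyte markers were lower and 1 of 4 hair follicle markers was higher in RERE. Of 3 T cell markers 1 was lower in RERE, and the 1 melanocyte marker tested was higher. None of 3 myeloid or 2 sebaceous gland markers was called. Of all genes 10.1% were lower and 17.4% higher in RERE.

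Mice of the same genotype and time did not carry equal amounts of Ttc9, and in RERE, EpiRE and WT, but not by the test in BRE, the difference went with Dbp, the clock output gene that peaks before dusk. At CT0 in EpiRE, replicates 1 to 4 had 4.13, 4.51, 1.34 and 4.35 log2 RPKM of Dbp beside the 1.05, 1.56, 2.17 and 1.43 of Ttc9 given above. At CT20 in EpiRE, they had 2.27, 4.86, 5.02 and 4.43 of Dbp beside 1.93, 1.10, 0.85 and 1.13 of Ttc9. In both groups the mouse with the least Dbp had the most Ttc9. At CT16 in WT, Dbp was 4.78, 5.03, 2.91 and 3.57 beside 0.78, 0.78, 1.81 and 1.59 of Ttc9, and at CT16 in RERE it was 3.82, 5.71, 4.86 and 3.78 beside 1.03, -0.09, 0.70 and 1.3.

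After subtraction of each time's mean, Pearson's r between Ttc9 and Dbp over the 24 libraries was -0.84 in RERE, -0.86 in EpiRE, 0.29 in BRE and -0.81 in WT. Permutation tests within CT, two-sided and adjusted over 16 correlations, gave p = 0.00128 in RERE, 0.00128 in EpiRE, 0.468 in BRE and 0.0016 in WT. Spearman's rho was -0.69 in RERE, -0.79 in EpiRE, 0.10 in BRE and -0.77 in WT, with adjusted permutation p of 0.0145, 0.00208, 0.758 and 0.00696. Without the 2 libraries farthest from the median of Dbp, r was -0.86 in RERE, -0.75 in EpiRE, 0.30 in BRE and -0.72 in WT. Without replicate 1 the RERE value was -0.80 (adjusted permutation p = 0.0768), and without replicate 4 the WT value was -0.86 (adjusted permutation p = 0.0625). The EpiRE value kept its call under each replicate left out, and was -0.90 without the 2 libraries that stood apart. Dbp varied little in BRE, with values of 1.73 to 2.56 log2 RPKM, and the difference of r between BRE and the other genotypes was not tested. Genes picked for a clock-dependent rhythm can vary with Dbp, by their peak time, between mice that differ in phase. The relation is therefore not independent of the choice, and phase differences between mice were not tested. No share of all genes is given for this relation.

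Tnxb went the other way, with r of 0.47 in RERE, 0.66 in EpiRE, -0.10 in BRE and 0.41 in WT. Adjusted permutation p was 0.0372 in RERE, 0.0225 in EpiRE, 0.739 in BRE and 0.212 in WT. Spearman's rho was 0.53 in RERE and 0.60 in EpiRE, with adjusted permutation p of 0.0758 and 0.0273. Without the 2 farthest libraries r was 0.53 in RERE and 0.56 in EpiRE. The RERE call was lost without any 1 of the replicates 1 to 4 (adjusted permutation p = 0.109 to 0.237), on log2(RPKM + 1) (0.0516) and with median-of-ratios scaling (0.0522). The EpiRE call was lost without replicate 1, 3 or 4 (adjusted permutation p = 0.241, 0.282 and 0.0625).

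In the main fit Pdxk and Fah did not pass this test in any genotype. With a replicate block more of the correlations with Dbp passed, as given with the alternatives below. For Pdxk r was 0.67 in RERE, 0.09 in EpiRE, -0.53 in BRE and 0.13 in WT, with adjusted permutation p of 0.0555, 0.739, 0.0555 and 0.468. The RERE value fell to 0.28 without the 2 farthest libraries, and the BRE value passed with median-of-ratios scaling (-0.62, adjusted permutation p = 0.03) and without replicate 3 (-0.68, 0.0446). For Fah r was -0.54 in RERE, -0.32 in EpiRE, -0.18 in BRE and 0.23 in WT, with adjusted permutation p of 0.0555, 0.256, 0.497 and 0.468. Its RERE value passed without replicate 4 (-0.73, adjusted permutation p = 0.00992).

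**Figure D4:**
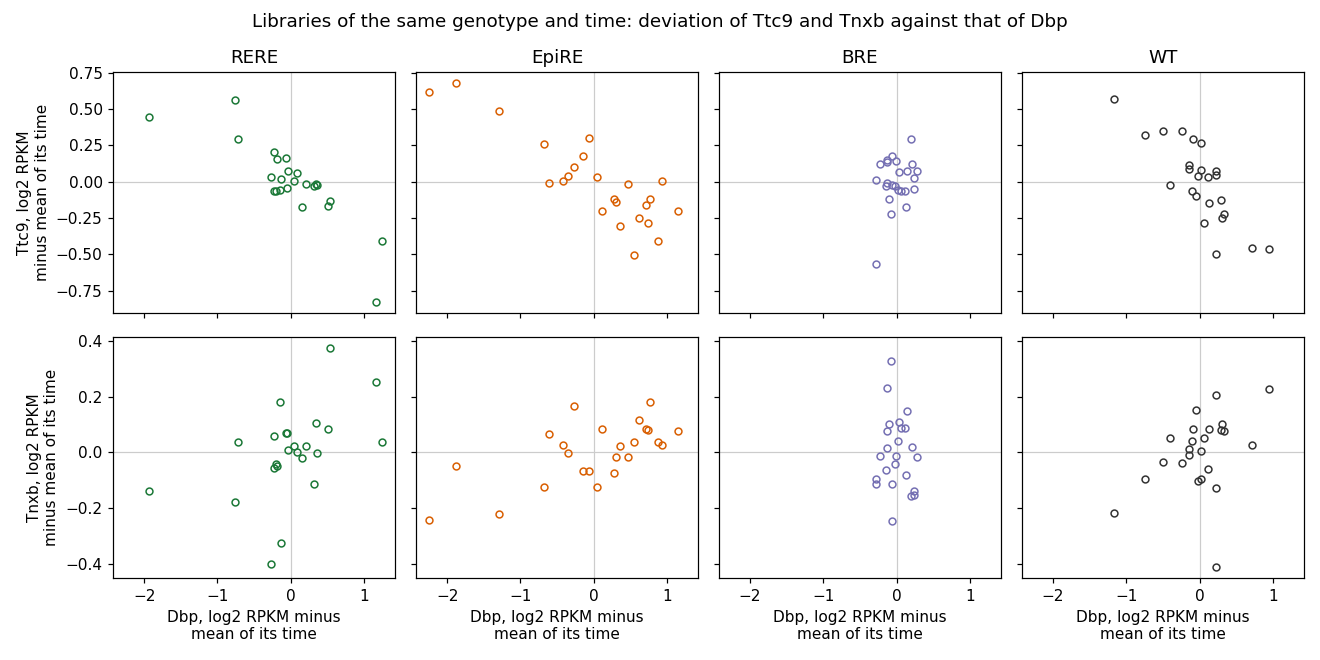
Deviation of Ttc9 (top) and Tnxb (bottom) from the mean of its genotype and time, in log2 units, against the same deviation of Dbp, in RERE, EpiRE, BRE and WT, with 24 libraries a panel. Ttc9 slopes down in RERE, EpiRE and WT, with r of -0.84, -0.86 and -0.81, and the BRE points are bunched on the Dbp axis.

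The spread between mice of the same time was compared with WT for each gene. The pooled SD within times was 0.30 in RERE, 0.34 in EpiRE, 0.19 in BRE and 0.31 in WT for Ttc9, and 0.16, 0.17, 0.25 and 0.23 in the same genotypes for Pdxk. For Fah it was 0.20 in RERE, 0.35 in EpiRE, 0.18 in BRE and 0.27 in WT, and for Tnxb 0.18, 0.12, 0.15 and 0.16. None of the 12 comparisons with WT passed a two-sided permutation test with adjustment over the 12, and 1 had an unadjusted p under 0.05, namely Ttc9 in BRE (p = 0.0319, adjusted permutation p = 0.383). With a replicate block some of the 12 passed, as given with the alternatives below. In EpiRE the SD of Fah, 0.35, was close to the SD of all its 24 libraries, which was also 0.35.

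The genes with the most similar pattern were ranked by Pearson's r over the 24 group means among 11028 genes, as a description. For Ttc9 they were Npas2 (0.99), which encodes the partner of BMAL1 related to CLOCK, Agpat3 (0.97), a phospholipid acyltransferase, and Cmtm6 (0.96), which keeps PD-L1 at the cell surface. For Pdxk they were Sod2 (0.96), the mitochondrial superoxide dismutase, Lonrf1 (0.94) and Rev1 (0.93), a translesion DNA polymerase. For Fah they were Cxcl14 (0.97), a chemokine of epithelia, Plxnd1 (0.94), a semaphorin receptor, and Tmem269 (0.92). For Tnxb they were Per2 (0.93), a repressor of the clock loop, Pgm2l1 (0.91), which makes glucose 1,6-bisphosphate, and Naa60 (0.90), an N-terminal acetyltransferase.

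The nearest expressed neighbours did not share the members' course in full. Map3k9, a kinase gene 53453 bases after Ttc9, was rhythmic in RERE (amplitude 0.24 ± 0.05, peak CT 17.6, adjusted p = 0.00671 by limma) and in WT (0.24 ± 0.05, CT 17.4, adjusted p = 0.00432), and was higher in BRE than in WT by 0.32 ± 0.05 (adjusted p = 1.29e-06). Its peak thus came before that of Ttc9, and Med6, on the other side, was called in none of the rhythm or level comparisons. Cstb, which encodes the protease inhibitor cystatin B and lies 9122 bases from Pdxk, peaked at CT 0.19 in RERE (0.27 ± 0.06, adjusted p = 0.00634 by limma) and at CT 2.48 in WT (0.26 ± 0.04, adjusted p = 0.000172), away from the peak of Pdxk. Abhd17c, a neighbour of Fah, peaked at CT 21.8 in both RERE and WT with amplitudes of 0.15 ± 0.02 and 0.14 ± 0.03 (adjusted p = 0.000569 and 0.00753 by limma), while Zfand6, nearer to Fah, was called in no comparison. Abhd17c lies 433266 bases from Fah. Like Fah, Abhd17c was higher in BRE than in WT, by 0.15 ± 0.03 (adjusted p = 0.000285 by limma). Unlike Fah, Abhd17c was also called higher in RERE than in WT, by 0.10 ± 0.03 (adjusted p = 0.0367 by limma), where 2.14% of genes were called. Its rhythm differed between RERE and BRE (adjusted p = 0.0101 by limma). Unlike Fah, its level in RERE against BRE was not called (-0.05 ± 0.03, adjusted p = 0.197 by limma). Atf6b, before Tnxb, peaked at CT 21.5 in RERE and CT 20.5 in WT with amplitudes of 0.15 ± 0.03 and 0.13 ± 0.04 (adjusted p = 0.00118 and 0.026 by limma). Ilvbl, on the other side of Pdxk from Cstb, was higher in BRE than in WT by 0.145 ± 0.047 (adjusted p = 0.0124 by limma). Stk19, after Tnxb, was lower in BRE, with a difference of -0.10 ± 0.04 (adjusted p = 0.0348 by limma). Of all genes 36.9% were called in level between BRE and WT. In rhythm 19.4% were called in RERE and 33.1% in WT, and 4.19% differed between RERE and BRE.

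Of the other genes of vitamin B6 metabolism 5 of 7 were tested, and few were called. Slc19a2, a thiamine carrier that also moves pyridoxine in humans, was rhythmic in RERE (amplitude 0.26 ± 0.07, peak CT 22.9, adjusted p = 0.0184 by limma), where 19.4% of all genes were called, and none of the 5 was called in WT, where 33.1% were. None was called in EpiRE, where 0.0% of genes were called, or in BRE, where 1.14% were. The 0 of 11061 genes in EpiRE stood beside 1397 with an unadjusted p under 0.05 in limma's moderated F test, and limma-voom on recovered reads also called 0. Between BRE and WT, where 36.9% of all genes were called, 1 of 5 differed in level, Slc19a2, which was higher by 0.16 ± 0.06 (adjusted p = 0.0301). Plpbp, a PLP-binding protein, was higher in EpiRE than in WT by 0.12 ± 0.03 (adjusted p = 0.0462 by limma). Without 1 replicate number at a time, 875 to 1619 genes were rhythmic in RERE (2136 with all), 0 to 198 in BRE (125) and 2019 to 2701 in WT (3675), with the fewest without replicate 3 in RERE, 2 in BRE and 4 in WT.

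Enzymes that use PLP were tested in larger number, and their changes in BRE ran in both directions. Of 41 listed genes 29 were tested in RERE, EpiRE and BRE and 28 in WT, and 9 were rhythmic in RERE, 0 in EpiRE, 2 in BRE and 14 in WT by limma, with 5 of the 29 at an unadjusted p under 0.05 in EpiRE. The shares of all genes were 19.4% in RERE, 0.0% in EpiRE, 1.14% in BRE and 33.1% in WT. Pygl, the liver-type glycogen phosphorylase, had amplitudes of 0.35 ± 0.05 in RERE with a peak at CT 23.8 and 0.28 ± 0.04 in WT with a peak at CT 1.53. Its rhythm in RERE differed from that in BRE (adjusted p = 7.2e-05 by limma), where 4.19% of genes were called, and from that in EpiRE (adjusted p = 0.0331), where 1.05% were. Gpt, alanine aminotransferase, also differed in rhythm between RERE and BRE (adjusted p = 0.0146) and was itself called rhythmic in BRE, with an amplitude of 0.29 ± 0.06 and a peak at CT 1.4. Without replicate 4 the genes called different in rhythm numbered 214 in RERE against BRE, from 461, and without replicate 2 they numbered 23 in RERE against EpiRE, from 116.

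In level 15 of the 29 PLP enzymes differed between BRE and WT, 7 higher and 8 lower, beside 12.5% of all genes higher and 24.4% lower. Their median difference was 0.00, and that of all genes -0.04. Gldc, the glycine decarboxylase, was higher in BRE by 0.63 ± 0.08 (adjusted p = 5.78e-08 by limma), and Sptlc3, of sphingolipid synthesis, by 0.37 ± 0.06 (adjusted p = 6.13e-06). Gpt was lower in BRE, with a difference of -0.59 ± 0.07 (adjusted p = 1.55e-09), and so was Bcat2, the mitochondrial aminotransferase of branched-chain amino acids, with a difference of -0.39 ± 0.06 (adjusted p = 5.13e-07). In RERE against BRE 12 differed, 6 higher and 6 lower, and in EpiRE against BRE 11 differed, 6 higher and 5 lower, beside 27.5% and 34.0% of all genes called in these comparisons. Against WT 1 differed in RERE (Gcat, higher by 0.24 ± 0.06, adjusted p = 0.0185, where 0.787% of genes were called higher) and 0 in EpiRE, where 1 had an unadjusted p under 0.05 by limma.

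The opening steps of tyrosine breakdown, the pathway that Fah ends, were barely detected in the epidermis. Tat, Hpd and Hgd, the enzymes from tyrosine to maleylacetoacetate, were under 1 RPKM in all 96 libraries, with genotype means between -7.20 and -5.87 log2 RPKM. Gstz1, which makes the substrate of Fah, had means of 3.25 log2 RPKM in RERE, 3.23 in EpiRE, 3.04 in BRE and 3.26 in WT. It was lower in BRE than in WT, with a difference of -0.23 ± 0.05 (adjusted p = 0.000126 by limma), opposite in sign to Fah. Of the 8 of 12 genes tested, 5 differed in level between BRE and WT, with Pcbd1 higher and Ddt, Gstz1, Mif and Qdpr lower, beside 36.9% of all genes. In rhythm 1 of 8 was called in RERE (Got1, peak CT 22.9, which is also a PLP enzyme) and 1 in WT (Pcbd1, peak CT 3.76), and 0 in EpiRE and BRE, where 0 and 2 had an unadjusted p under 0.05 by limma. Of all genes 19.4% were called in RERE and 33.1% in WT, and 8 genes are too few to tell these counts from those shares. An unadjusted p under 0.05 by limma was reached by 1 of the 8 in RERE and 4 in WT.

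Of 18 other matrix genes only 4 passed the filter in RERE, EpiRE and BRE and 5 in WT. Among these Col12a1, a fibril-associated collagen, was rhythmic in RERE (amplitude 0.49 ± 0.10, peak CT 11.2, adjusted p = 0.00478 by limma) and in WT (0.32 ± 0.09, CT 12.5, adjusted p = 0.0173), close in time to Tnxb. Its rhythm differed between RERE and BRE (adjusted p = 0.00106 by limma), and it was lower in BRE than in WT, with a difference of -0.39 ± 0.12 (adjusted p = 0.0066). Col6a1 was higher in BRE than in WT by 0.55 ± 0.10 (adjusted p = 3.55e-05). In rhythm 1 of 4 matrix genes was called in RERE and 1 of 5 in WT, beside 19.4% and 33.1% of all genes. A different rhythm in RERE and BRE was called for 1 of 4, beside 4.19%. In level 2 of 4 differed between BRE and WT, beside 36.9%. So few genes cannot be told from these shares. Of the Ttc9 family, Ttc9b was under 1 RPKM in all 96 libraries, and Ttc9c was called rhythmic in WT with an amplitude of 0.16 ± 0.03 and a peak at CT 17.5 (adjusted p = 0.00343 by limma). Ttc9c differed in level in none of the 6 comparisons.

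The PAR bZIP genes and their opponent were rhythmic in RERE and WT, 4 of 4 in each, and 0 of 4 in EpiRE and BRE by limma, with 3 in EpiRE and 0 in BRE at an unadjusted p under 0.05. Of all genes 19.4% were called in RERE, 0.0% in EpiRE, 1.14% in BRE and 33.1% in WT, so a count of 0 in EpiRE is shared by the whole table. Dbp peaked at CT 10.3 in RERE and CT 9.39 in WT, with amplitudes of 2.82 ± 0.23 and 2.84 ± 0.18. Nfil3, the repressor, peaked at CT 22.1 in RERE and CT 23.6 in WT, near Ttc9 and Fah. In level BRE was lower than WT for Dbp, with a difference of -2.17 ± 0.33 (adjusted p = 1.44e-06 by limma) and for Tef, with -0.66 ± 0.16 (adjusted p = 0.00147), and higher for Nfil3 by 0.56 ± 0.18 (adjusted p = 0.011). Hlf, at -0.15 ± 0.08, was not called (adjusted p = 0.119).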

How the data were processed

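The 4 genes, the gene lists and the tests were chosen with earlier results of these data known. Per the labels' protocols, epidermis was split off with dispase and made into stranded polyA libraries with molecular identifiers. The build mm10 and featureCounts 1.6.0, SAMtools 1.3.1, edgeR, Trimmomatic 0.36 and HISAT2 2.2.1 are named, without order, per the submitters' processing notes. The sources used here do not state whether counting used identifiers or strand.

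The deposited values are log2 RPKM, made by the authors, in 1 BIOCYCLE table per genotype, and the deposited p-value and q-value columns were not used for any call. The other 4 tables, of JTK_CYCLE, hold 96 library columns under codes found in no label, which were left out. In EpiRE and BRE these codes are out of order, so the CT of both rest on the BIOCYCLE column names.

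Whole reads were recovered from the deposited log2 values for 99.92% of genes, within 0.1 read, with a prior of 0.25 reads. Rhythm was a 24 h cosine and sine within a genotype, and level was genotype beside CT, both with limma 3.58.1 (moderated tests with trend) in R 4.3.3. Genes averaging 0 log2 RPKM or more over the libraries compared were tested, and Benjamini-Hochberg adjusted p under 0.05 was called. The fit was tested on simulated data. Permutation tests used 100000 resamples. Errors come from the spread between libraries. Alternatives were no filter, log2(RPKM + 1), median-of-ratios scaling, limma-voom, a replicate block, and libraries left out. Named genes were the 4 members, the 3 most similar genes of each, their nearest expressed neighbours and called genes of the lists.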

Additional observations from a re-analysis of the deposited data

Results flagged for a closer look

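In 4 of the 96 groups of 4 libraries, 24 for each gene, 1 library lay far from the other 3 by Dixon's test, against about 1 in 20 groups that chance flags. Pdxk had 2.82 log2 RPKM in replicate 3 of EpiRE at CT8, against 2.48 to 2.52 in the other 3. Pdxk had 2.06 in replicate 3 of BRE at CT4, against 1.57 to 1.62, and 1.6 in replicate 1 of BRE at CT12, against 1.81 to 1.83. Tnxb had 5.52 in replicate 1 of EpiRE at CT16, against 5.80 to 5.82. None of these 4 is among the 2 libraries that stood apart over all genes. The called levels of Pdxk and Tnxb stayed called without replicate 1 and without replicate 3.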

How the results depend on the processing

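Each level call of the 4 genes kept its direction and its side of the threshold under the alternatives run. BRE minus WT was 1.17 to 1.58 for Ttc9, -0.57 to -0.43 for Pdxk and 0.32 to 0.49 for Fah, and EpiRE minus BRE was 0.14 to 0.21 for Tnxb. Some uncalled differences near 0 changed sign and stayed uncalled. For Ttc9, EpiRE minus WT was 0.011 without the 2 libraries that stood apart, and RERE minus EpiRE was 0.031 on log2(RPKM + 1) and 0.127 with limma-voom. For Pdxk, EpiRE minus WT was -0.023 with limma-voom, and RERE minus EpiRE was 0.01 on log2(RPKM + 1), 0.005 with median-of-ratios scaling and 0.041 with limma-voom. For Fah, RERE minus EpiRE was 0.064 with limma-voom. With 1 replicate number left out at a time, EpiRE minus WT was -0.049 to 0.007 for Ttc9, -0.037 to 0.057 for Pdxk and -0.076 to 0.014 for Fah. RERE minus EpiRE was then -0.051 to 0.024 for Ttc9, -0.04 to 0.057 for Pdxk and -0.062 to 0.059 for Fah, and RERE minus WT was -0.116 to 0.03 for Fah.

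The log2 ratio of the within-time variance to that of WT was -0.002 for Ttc9 in EpiRE with median-of-ratios scaling. Without 1 replicate number it was -0.77 to 0.21 for Ttc9 in RERE, -1.32 to 0.71 for Ttc9 in EpiRE, -1.19 to 0.75 for Tnxb in EpiRE and -0.72 to 0.71 for Tnxb in BRE. The correlation with Dbp was then -0.24 to 0.42 for Pdxk in EpiRE, -0.60 to 0.27 for Fah in EpiRE and -0.32 to 0.17 for Tnxb in BRE, and 2 to 4 of the 16 correlations passed, against 5 with all libraries.

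Replicate numbers did not pair the libraries. The mean correlation of deviations was 0.01, 0.004, -0.002 and 0.005 for numbers 1 to 4 and -0.001 between different numbers. With the replicate block 41 genes were rhythmic in BRE against 125, 2 of the 12 spreads passed against 0, and 8 of the 16 correlations passed against 5. Without the filter 37 genes were rhythmic in BRE. Between RERE and EpiRE 4 genes differed in level without the filter and 2 each on log2(RPKM + 1), with median-of-ratios scaling and with limma-voom, against 1. With 1 replicate number left out, the counts were 875 to 1619 rhythmic in RERE, 0 to 198 in BRE and 2019 to 2701 in WT. They were 214 to 335 different in rhythm between RERE and BRE, and 23 to 132 between RERE and EpiRE. In level they were 48 to 321 between RERE and WT, 55 to 230 between EpiRE and WT, 0 to 1 between RERE and EpiRE, and 1873 to 2520 between RERE and BRE. The cause of these shifts was not tested, beyond the fewer libraries each left-out fit has. Fah, with 43 to 214 reads per library, is the gene whose values depth limits most.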
